A study of Rattus norvegicus with 8 samples.

Results

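The circadian clock genes described here are 9 rat genes, namely the period genes Per1, Per2 and Per3, the cryptochrome gene Cry1, the activators Arntl and Clock, and the output genes Nr1d1, Nr1d2 and Dbp. They were chosen by Ensembl identifier as core parts and outputs of the clock, with no measured value in the rule. Earlier results of these data were known when the genes were chosen. All 9 were found among the 26404 identifiers of the count table. RNA was sequenced after poly(A) enrichment from dorsal hind paw skin of Sprague-Dawley rats weighing 125 to 200 g, kept on a cycle of 12 h light and dark. The burn group (4 libraries) came from paws held for 2 min in saline at 60 °C, which gives a deep partial-thickness burn, and the control group (4 libraries) from contralateral paws held at the same time in saline at room temperature. Every rat was under urethane (1.5 g/kg) with body temperature held at 37 °C, and pentobarbital (40 mg) is listed for both groups. The skin of both groups had carried a microdialysis probe, so the control libraries are not untouched skin. The labels used here state neither the sex of the rats, nor the interval from burn to excision, nor the time of day of excision.

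The clock is a feedback loop of transcription. CLOCK pairs with BMAL1, the product of Arntl, and the pair binds E-box sequences to switch on the Per and Cry genes, whose proteins return to block the pair. The same pair drives Nr1d1 and Nr1d2, which encode the nuclear receptors REV-ERB alpha and REV-ERB beta, repressors of Arntl, and Dbp, which encodes an activator that binds D-box sequences. Skin keeps such a clock in its keratinocytes, fibroblasts and hair follicles, where it is known for timing cell division and repair. Arntl and Dbp normally peak at opposite phases of the day.

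Sequence upstream of the start sites is shown for the 3 genes that were lower in burned skin, Nr1d1, Nr1d2 and Clock, and for Arntl and Per2, whose windows hold a clock element. Each window is the 250 bases before a RefSeq start site on assembly GRCr8, which is not the build of the counts, and 8 of the 9 genes were matched by symbol, with Arntl listed there as Bmal1. Nr1d1 and Clock each had 2 start sites, which gave 10 windows in all. For Clock only the outer window is printed, and the inner one held no match. Letters in capitals mark exact matches, on either strand, to the E-box CACGTG, the variant E-box CACGTT, the D-box forms TTATGTAA and TTACGTAA, the REV-ERB and ROR element core TAGGTCA, the cyclic AMP element TGACGTCA, its core TGACG, which the full element contains, or the heat shock element GAANNTTC.
Nr1d1, outer start, chr10:84231813-84232062, minus strand: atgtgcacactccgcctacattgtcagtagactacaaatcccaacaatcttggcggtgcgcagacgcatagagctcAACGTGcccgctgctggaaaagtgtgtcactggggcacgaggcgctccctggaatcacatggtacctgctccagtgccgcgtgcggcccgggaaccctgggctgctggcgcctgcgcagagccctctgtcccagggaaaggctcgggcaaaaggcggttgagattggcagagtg
Nr1d1, inner start, chr10:84229455-84229704, minus strand: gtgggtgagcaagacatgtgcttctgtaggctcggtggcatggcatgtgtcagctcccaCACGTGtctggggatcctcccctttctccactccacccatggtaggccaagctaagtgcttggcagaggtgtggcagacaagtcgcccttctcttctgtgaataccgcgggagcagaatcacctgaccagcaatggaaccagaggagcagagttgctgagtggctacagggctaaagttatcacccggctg
Nr1d2, chr15:9954784-9955033, plus strand: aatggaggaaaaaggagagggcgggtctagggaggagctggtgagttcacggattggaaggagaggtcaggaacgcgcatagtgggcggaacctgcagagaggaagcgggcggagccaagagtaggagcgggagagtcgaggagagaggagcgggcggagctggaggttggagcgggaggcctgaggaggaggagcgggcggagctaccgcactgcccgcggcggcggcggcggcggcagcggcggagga
Clock, outer start, chr14:32262500-32262749, plus strand: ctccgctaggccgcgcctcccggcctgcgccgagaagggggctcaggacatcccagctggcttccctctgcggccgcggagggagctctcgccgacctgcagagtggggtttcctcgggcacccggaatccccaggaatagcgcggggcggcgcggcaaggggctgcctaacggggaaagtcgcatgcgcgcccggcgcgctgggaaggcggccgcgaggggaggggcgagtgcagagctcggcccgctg
Arntl, chr1:176766078-176766327, plus strand: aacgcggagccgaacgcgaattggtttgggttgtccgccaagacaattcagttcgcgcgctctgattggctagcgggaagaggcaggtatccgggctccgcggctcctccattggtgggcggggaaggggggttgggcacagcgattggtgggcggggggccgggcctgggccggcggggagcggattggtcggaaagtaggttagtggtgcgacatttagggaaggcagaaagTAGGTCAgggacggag
Per2, chr9:99496994-99497243, minus strand: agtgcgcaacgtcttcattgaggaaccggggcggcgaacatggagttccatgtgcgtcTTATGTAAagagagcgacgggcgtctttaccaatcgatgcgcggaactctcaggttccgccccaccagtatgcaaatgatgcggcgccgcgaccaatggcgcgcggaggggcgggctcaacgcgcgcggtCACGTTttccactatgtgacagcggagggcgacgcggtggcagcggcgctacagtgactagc

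The inner Nr1d1 window held an E-box beginning 191 bases before the start site, a sequence found in 5.59% of the 33469 upstream windows in the table. The outer Nr1d1 window held a variant E-box on the opposite strand, printed as AACGTG, and Per2 held another 62 bases before its start site. The variant was found in 4.07% of all windows. Per2 also held the D-box TTATGTAA 192 bases before its start site, against 0.828% of all windows. Arntl held the REV-ERB and ROR element core 16 bases before its start site, against 2.26%. The only other match was TGACG on the opposite strand of the Per3 window, which 18.2% of all windows hold. No match was found in the windows of Per1, Clock, Nr1d2 or Dbp, and none of the 10 windows held the full cyclic AMP element, TTACGTAA or the heat shock element. These matches describe letters in short windows, and no binding was measured.

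Libraries held 13693811 to 18738652 counts in burn and 17824830 to 26837925 in control. Levels are given as CPM, counts scaled to a common library total, after TMM scaling, a correction for differences in library composition. They are compared between libraries for 1 gene only, because CPM is not divided by transcript length. Burn replicate 3 stood apart, with 15354 genes detected where the other 7 libraries had 17322 to 17547, so results are also given without it. Markers of cell types could not be looked up by symbol in this table, and the labelled tissue was not checked against them. In whole skin, fewer cells of a type and less RNA per cell cannot be told apart.

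Of the 9 clock genes, 3 fell in burned skin, Clock by 3.28-fold, Nr1d2 by 2.51-fold and Nr1d1 by 2.18-fold, and none rose. All 9 passed the filter on low counts. Across the 14240 genes tested, 10.0% were lower and 11.9% were higher in burn at an adjusted p of 0.05 in edgeR's quasi-likelihood test. That is 1426 lower and 1689 higher, and scaling by library size alone turned the balance to 2138 lower and 894 higher. The 3 genes that fell were also those whose burn and control values did not overlap, a separation seen downward in 15.6% of all genes. The log2 fold change, burn minus control, was below 0 for 8 of the 9 clock genes and for 46.6% of all genes, and its median was -0.50 over the clock genes and 0.06 over all genes. Without burn replicate 3 the same 3 genes, Clock, Nr1d1 and Nr1d2, were called lower, beside 13.3% of all genes. The counts are small, and nothing particular to clock genes is read from them.

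**Figure D1:**
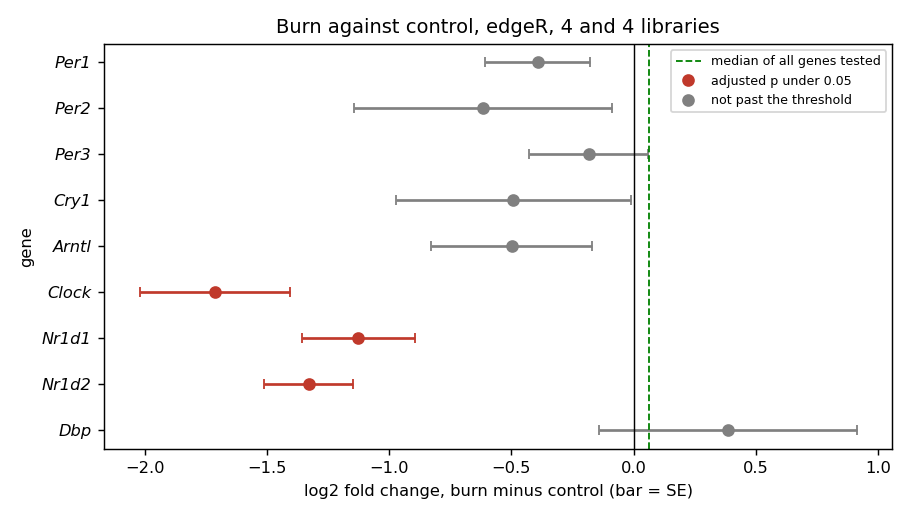
Log2 fold change of each clock gene, burn minus control, from the edgeR fit over 14240 genes (4 and 4 libraries), with bars of 1 standard error. The red points Clock, Nr1d1 and Nr1d2 lie at -1.71, -1.13 and -1.33, and the dashed line marks the median of all genes, 0.06.

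The activators were Clock and Arntl, partners in the protein pair that drives the loop. Clock (ENSRNOG00000002175) was at 17.0, 33.4, 21.0 and 22.9 CPM in control replicates 1 to 4 and at 7.47, 8.61, 4.09 and 8.61 CPM in burn replicates 1 to 4. No burn library reached the lowest control, with a gap of 0.97 log2 units between the nearest values. The log2 fold change was -1.71 (SE 0.31, edgeR adjusted p = 0.00886), the largest of the 9 in size, and 3.01% of all genes tested had a lower one. Burn replicate 3 was the lowest library, and without it the log2 fold change was -1.52 (edgeR adjusted p = 0.00593). Burn values rested on 78 to 143 counts per library and control values on 425 to 965.

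Arntl encodes BMAL1, without which CLOCK does not bind E-boxes. Arntl (ENSRNOG00000014448) was at 31.5, 67.4, 39.6 and 33.8 CPM in control and at 27.7, 38.8, 16.9 and 38.5 CPM in burn. The groups overlapped, since burn replicates 2 and 4 were above control replicates 1 and 4. Its log2 fold change of -0.50 (SE 0.33) did not pass the threshold (edgeR adjusted p = 0.300). It was -0.21 without control replicate 2 and -0.30 without burn replicate 3. Control replicate 2 was the highest library for both Arntl and Clock, and burn replicate 3 the lowest for both. The difference between the responses of the 2 activators was not tested.

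**Figure D2:**
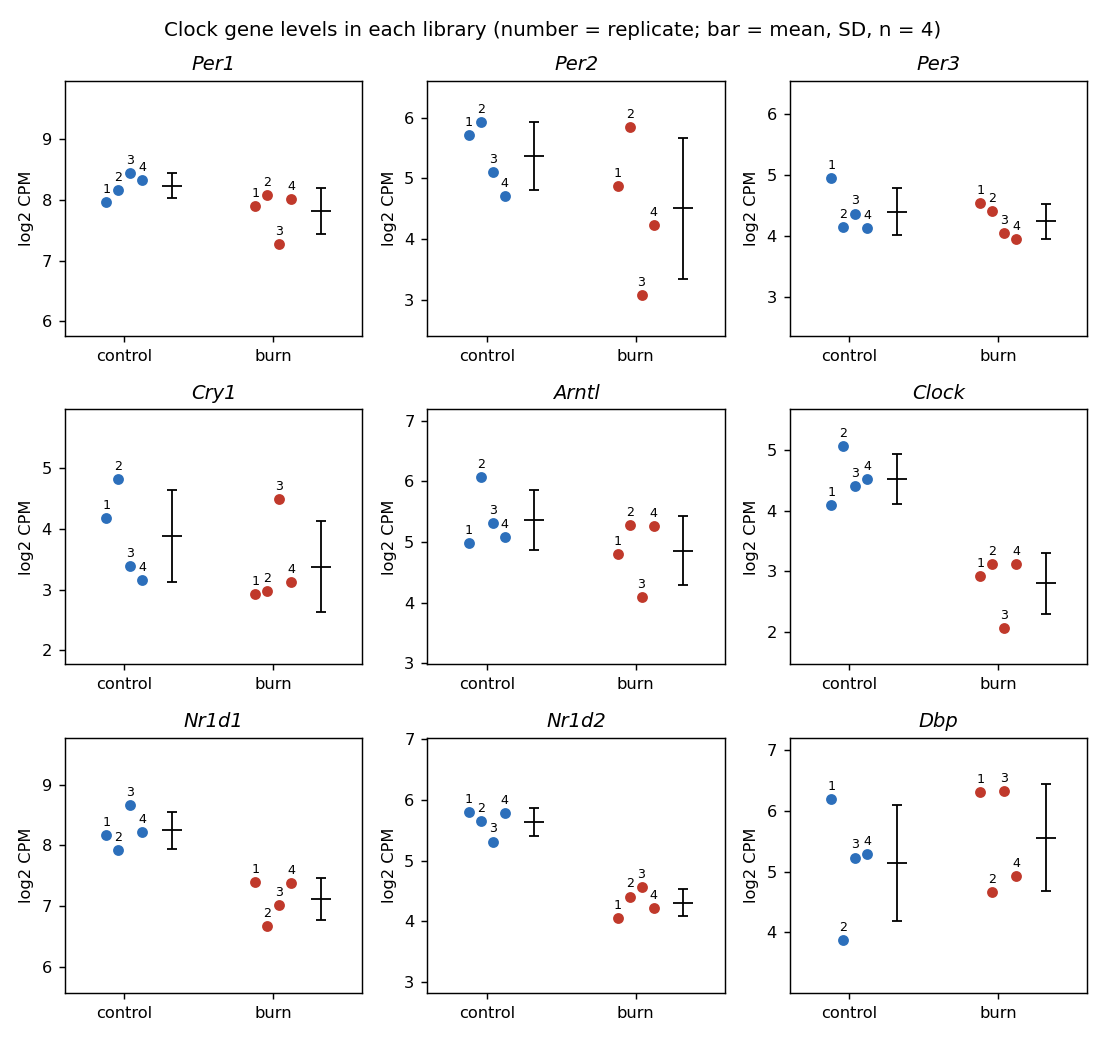
Level of each clock gene in log2 CPM (prior count 2) in the 4 control libraries (blue) and 4 burn libraries (red), with the replicate number above each point and the mean and SD beside the points; each panel spans the same number of log2 units. For Clock, Nr1d1 and Nr1d2 all 4 burn points lie below all 4 control points, and for the other 6 genes the groups overlap.

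Of the 3 output genes, 2 fell and Dbp did not pass the threshold. Nr1d2 (ENSRNOG00000046912), which encodes REV-ERB beta, was at 55.4, 50.0, 39.7 and 55.1 CPM in control and at 16.4, 21.1, 23.5 and 18.5 CPM in burn. All burn libraries were under all controls, and the spread was small in both groups, with an SD of 0.22 log2 units in each (n = 4). Its log2 fold change was -1.33 (SE 0.18, edgeR adjusted p = 0.00409), the smallest adjusted p among the 9 genes. Without burn replicate 3 it was -1.42 (edgeR adjusted p = 0.00256).

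Nr1d1 (ENSRNOG00000009329), which encodes REV-ERB alpha, was at 289, 242, 406 and 299 CPM in control and at 169, 102, 129 and 166 CPM in burn. Again the highest burn library lay below the lowest control, by 0.52 log2 units. For Nr1d1 the fitted log2 change was -1.13 (SE 0.23, edgeR adjusted p = 0.0128), which was -1.09 without burn replicate 3 (edgeR adjusted p = 0.0153). On GRCr8 the annotated span of Nr1d1 overlaps that of Thra, the thyroid hormone receptor alpha gene. The labels do not state whether the counting used strand, so reads from the shared stretch cannot be assigned with certainty. The same holds for Clock, whose span overlaps those of 2 other genes there, LOC134481741 and LOC108352740, and for Per2 and Cry1, which overlap 1 each. Whether the annotation used for counting held these genes is not stated.

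Dbp (ENSRNOG00000021027), the D-box activator, was the one clock gene with a log2 fold change above 0. It was at 73.3, 14.7, 37.6 and 39.0 CPM in control and at 79.1, 25.3, 80.1 and 30.5 CPM in burn. Burn replicates 1 and 3 were above every control, while burn replicates 2 and 4 lay within the control range. The log2 fold change of 0.39 (SE 0.53) did not pass the threshold (edgeR adjusted p = 0.627). Leaving out control replicate 1 gave 0.81, and leaving out control replicate 2, burn replicate 3 or burn replicate 1 gave 0.10, 0.12 or 0.14. Without burn replicate 2 it was 0.62. Its 4 control libraries covered a 5.00-fold range, and their SD of 0.95 log2 units was larger than that of 97.5% of all genes tested.

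The period genes encode the repressors that close the loop, and Per1 and Per2 are also known as genes that signals can induce quickly. None of the 3 passed the threshold. Per1 (ENSRNOG00000007387) was at 252, 288, 350 and 322 CPM in control and at 240, 271, 154 and 259 CPM in burn. Burn replicates 1 and 3 were below every control, and burn replicates 2 and 4 were within the control range. Its log2 fold change was -0.39 (SE 0.21, edgeR adjusted p = 0.211), and -0.24 without burn replicate 3. Scaling by library size alone gave -0.65 and an edgeR adjusted p of 0.0425, in a fit that also moved the median of all genes from 0.06 to -0.15. Relative to those medians Per1 stood at -0.46 and -0.50.

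Per2 (ENSRNOG00000020254) was at 52.7, 60.9, 34.3 and 26.0 CPM in control and at 29.4, 57.2, 8.35 and 18.6 CPM in burn. The burn libraries spread over a 6.86-fold range, the widest of the 9 genes, from burn replicate 3 at the bottom to burn replicate 2 near the top of the controls. Its log2 fold change of -0.62 (SE 0.53) did not pass the threshold (edgeR adjusted p = 0.426). It was -1.22 without burn replicate 2 (edgeR adjusted p = 0.0770) and -0.31 without burn replicate 3 (edgeR adjusted p = 0.609), so its size depends on these 2 libraries. Adding 1 surrogate variable, an unmeasured factor estimated from the data, gave -0.96 and an edgeR adjusted p of 0.0361.

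Per3 (ENSRNOG00000018413), the period gene least needed for rhythm in mice, was at 30.9, 17.6, 20.6 and 17.5 CPM in control and at 23.2, 21.3, 16.4 and 15.4 CPM in burn. The groups overlapped, and the log2 fold change was -0.18 (SE 0.24, edgeR adjusted p = 0.616). Control replicate 1 was the highest library, and without it the log2 fold change was 0.03 (edgeR adjusted p = 0.943).

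Cry1 (ENSRNOG00000006622) encodes the cryptochrome that represses CLOCK and BMAL1 together with the PER proteins. It was at 17.9, 28.1, 10.3 and 8.88 CPM in control and at 7.47, 7.75, 22.4 and 8.67 CPM in burn. Burn replicates 1, 2 and 4 lay below every control, and burn replicate 3 lay above 3 of the 4 controls. For Cry1 the fitted log2 change was -0.49 (SE 0.48, edgeR adjusted p = 0.489). It was -1.04 without burn replicate 3 (edgeR adjusted p = 0.0890) and -0.11 without control replicate 2 (edgeR adjusted p = 0.905), neither past the threshold.

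The period genes were set against the output genes by their log2 ratio within each library, which does not depend on how libraries are scaled. The ratio of Per1 to Nr1d1 was higher in burn by 0.72, with burn libraries 0.27 to 1.42 above the control mean and control libraries from -0.20 to 0.27 around it. The groups did not overlap, but burn replicate 3 and control replicate 2 both rounded to 0.27. The ratio of Per3 to Nr1d2 was higher in burn by 1.16, with burn libraries at 0.72 to 1.73 and control libraries at -0.42 to 0.39. Both gave a two-sided exact permutation p of 0.0286, the smallest that 4 against 4 libraries allow, and 0.171 after adjustment over the 12 pairs compared. Neither passed a threshold of 0.05 after adjustment, for which at least 7 of the 12 pairs would have had to reach that smallest p.

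The ratios of Per3 to Nr1d1 and Per1 to Nr1d2 were higher in burn by 0.97 and 0.91 (exact permutation p = 0.0571 for each, adjusted 0.171). Ratios of Per2 to Nr1d1 and Nr1d2 were higher by 0.27 and 0.47, well inside the SD of 1.32 and 1.26 among burn libraries (n = 4). Without burn replicate 2 these were -0.32 and 0.056, and without burn replicate 3 they were 0.71 and 1.03. Against Dbp the burn minus control differences were -0.82 for Per1, -1.27 for Per2 and -0.57 for Per3, with SDs of 0.89 to 1.83 among burn libraries. None of these, nor the 3 ratios between period genes, passed the threshold (exact permutation p from 0.286 to 0.800 before adjustment). Without burn replicate 2 the differences for Per2 over Dbp and Per2 over Per3 were -2.01 and -1.08. Each had an unadjusted exact permutation p of 0.0286, the smallest that 3 against 4 libraries allow. With all libraries the exact permutation p was 0.314 and 0.286. These 2 refits stand among those that left out each library in turn for all 12 pairs. Nr1d1 and Nr1d2 passed the test across all genes and the period genes did not. The difference between Nr1d1 or Nr1d2 and the period genes did not pass its own test with 4 libraries a group. Fewer than 7 pairs set a period gene against Nr1d1 or Nr1d2, so those pairs alone could not have passed after adjustment. No conclusion about the difference is drawn from that test.

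**Figure D3:**
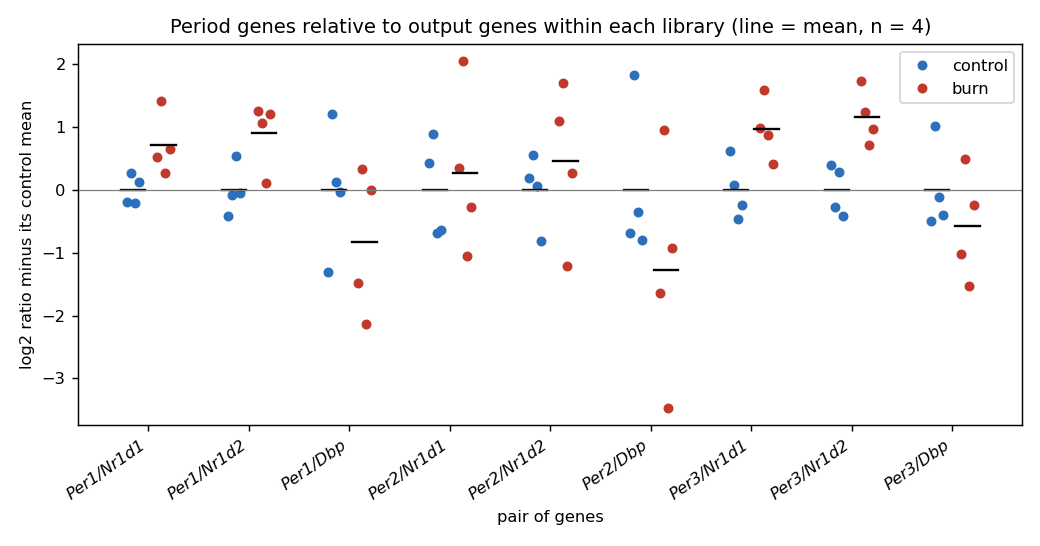
Log2 ratio of each period gene to each output gene within a library, shown as the difference from the control mean of that ratio, for 4 control (blue) and 4 burn (red) libraries, with a line at each mean. Ratios to Nr1d1 and Nr1d2 have burn means above 0, up to 1.16 for Per3 over Nr1d2, and ratios to Dbp have burn means below 0.

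Control libraries differed in their clock gene levels, and 7 of the 9 genes had a control SD above the median of all genes tested. The median control SD of the 9 was 0.41 log2 units, against 0.25 over all genes tested, while their median burn SD of 0.50 was close to the 0.52 of all genes. In the controls the spread was widest for Dbp, Cry1 and Per2, whose SDs exceeded those of 97.5%, 94.9% and 87.9% of genes, and narrowest for Per1 and Nr1d2, whose SDs exceeded those of 38.8% and 43.4%. The highest control library was replicate 2 for Per2, Cry1, Arntl and Clock, and that library was the lowest for Nr1d1 and Dbp. Control replicate 1 was the highest for Per3, Nr1d2 and Dbp and the lowest for Per1, Arntl and Clock. Thus Arntl and Dbp stood at opposite ends in these 2 libraries. The hour of sampling of each rat is not among the labels, and its part in this spread was not tested.

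Burn replicate 3 also held both extremes. It was the lowest burn library for Per1, Per2, Arntl and Clock and the highest for Cry1, Nr1d2 and Dbp. Its median difference from the control mean over the 9 genes was -1.07 log2 units, against -0.56, -0.48 and -0.75 in burn replicates 1, 2 and 4. The median over all genes lay between -0.05 and 0.02 in the 4 burn libraries. In burn replicate 3, 7 of the 9 genes were below every control, and in burn replicates 1, 2 and 4 the counts were 6, 4 and 6. The share of all genes tested that lay below every control was 42.8% in burn replicate 3 and 37.9%, 36.7% and 34.8% in burn replicates 1, 2 and 4.

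**Figure D4:**
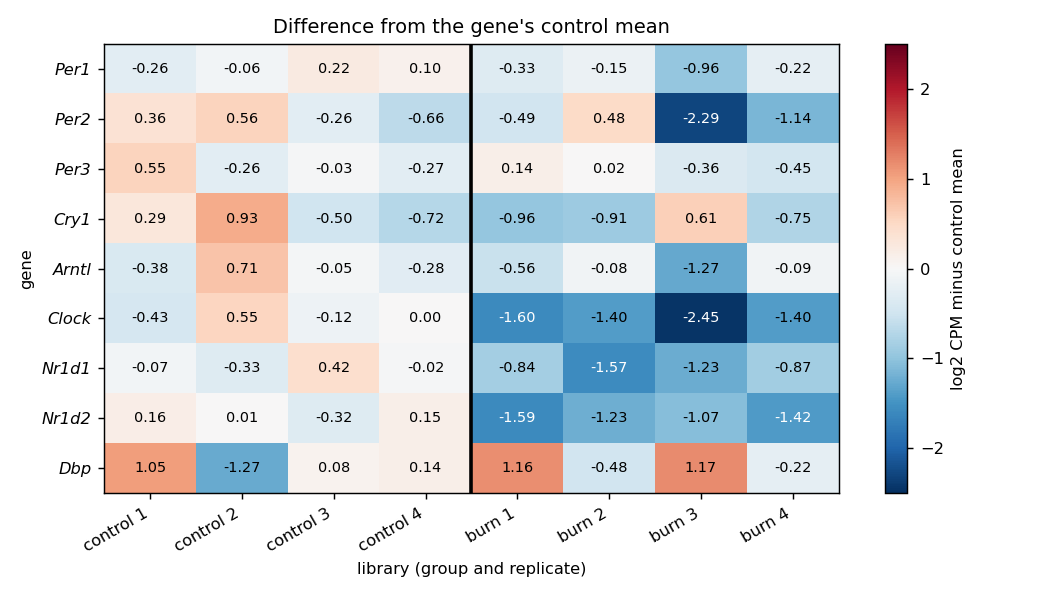
Difference in log2 CPM of each clock gene from its own control mean, by library, with control libraries left and burn libraries right of the black line; blue is lower and red is higher. Clock, Nr1d1 and Nr1d2 are blue in all 4 burn libraries, from -0.84 to -2.45, and Dbp is red in burn replicates 1 and 3.

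Likeness between profiles was measured as the root mean square difference of these centred values over the 8 libraries. The closest pair was Per1 and Arntl, at 0.36 log2 units. Nr1d1 and Nr1d2 were each nearest to the other, at 0.47, and Clock was nearest to Nr1d2, at 0.57. Dbp was the farthest gene from each of the others except Per3, with 1.89 between it and Clock, and its own nearest gene was Per3 at 0.80. The nearest genes of Per2, Cry1 and Per3 were Arntl at 0.63, Per3 at 0.79 and Per1 at 0.44. These distances include the group difference itself and carry no test.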

How the data were processed

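The deposited table holds whole-number read counts per Ensembl gene, not normalised, with 1 column per library. Build Rnor_5.0 and the tools HTSeq 0.5.4p3, TopHat2 2.0.9, limma, edgeR and R 3.0.1 stand in the submitters' processing notes, without their roles. The annotation release and the strand setting were not given in the sources used here. Groups came from the treatment labels. Replicate numbers follow accession order and pair nothing. Nothing says that libraries of a group came from separate rats, so p-values measure only the spread between these samples. Controls were contralateral paws, so a burn and a control library may share a rat. The fits and the permutations treated all 8 libraries as unpaired and do not account for this.

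The identifiers carry no symbols in the table, and 0 of the 47357 genes in the RefSeq table have an Ensembl identifier. The 9 symbols were supplied with the gene set, and the other clock genes and cell type markers that had been listed were not analysed here. All 9 genes are named, as the rule set out. The genes and lists were chosen with earlier results of these data known.

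All 8 libraries were fitted with edgeR 4.0.16 in R 4.3.3 (quasi-likelihood test, robust dispersions, TMM factors, default expression filter, group alone), which tested 14240 genes. Two-sided p-values received Benjamini-Hochberg adjustment across all tested genes, with 0.05 as the threshold. Standard errors are the log2 fold change divided by the square root of F. CPM and log2 CPM (prior count 2) used the same factors. Ratios were compared with exact permutation tests over the 70 divisions into 4 and 4. Alternatives were other scalings and filters, DESeq2 1.42.0, limma-voom (limma 3.58.1) with and without sample weights, 1 surrogate variable (sva 3.50.0), a threshold of 0.01, a prior count of 0.5 for ratios, and leaving out each library. The fit was also run on simulated counts, drawn independently for each library, and the outcome is not given here. Upstream sequences are RefSeq's on GRCr8.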

Additional observations from a re-analysis of the deposited data

Results flagged for a closer look

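In 42 screens of 4 values each, over the 9 genes and 12 ratios in both groups, 4 picked a library far from the other 3. Chance picks about 1 in 20 of separate screens, and these share genes and libraries. Cry1 in burn replicate 3 was at 4.49 log2 CPM, where the other burn libraries were at 2.92 to 3.13. The log2 ratio of Per1 to Nr1d2 in burn replicate 3 was 0.11 above the control mean, where the other burn libraries were 1.07 to 1.26 above it. In control replicate 1 the log2 ratio of Per1 to Per3 was at -0.81 from the control mean, with the other controls at 0.19 to 0.37. In control replicate 2 the log2 ratio of Per2 to Per3 was at 0.82, with the other controls at -0.39 to -0.20.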

How the results depend on the processing

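Clock and Nr1d2 stayed lower and past the threshold in all 17 alternatives run, with log2 fold changes of -1.98 to -1.43 and -1.51 to -1.25. Nr1d1 did so in 16 of 17, over -1.35 to -0.97, and at a threshold of 0.01 its -1.13 no longer passed (edgeR adjusted p = 0.0128). Cry1, Arntl and Dbp kept their direction and stayed short of the threshold in all 17, and Dbp came down to 0.0025 with limma-voom and sample weights. Per1 passed it under library size alone (-0.65) and Per2 with 1 surrogate variable (-0.96). Leaving out 1 library at a time gave -0.29 to 0.030 for Per3, the upper end without control replicate 1. It gave 0.48 to 0.86 for the ratio of Per1 to Nr1d1, which then passed an unadjusted 0.05 in 3 of 8 refits. It gave 0.98 to 1.31 for Per3 to Nr1d2, which passed an unadjusted 0.05 except without control replicate 4 (exact permutation p = 0.0571). For Per2 it gave -0.32 to 0.71 against Nr1d1, -2.01 to -0.54 against Dbp and -1.08 to -0.29 against Per3, each lowest value without burn replicate 2, where the last 2 passed an unadjusted 0.05. A prior count of 0.5 changed no ratio's direction or side. Over all genes, 1689 were higher and 1426 lower. Library size alone gave 894 higher and 2138 lower, so that 29.5% of calls were higher instead of 54.2%, DESeq2 2203 lower, 1 surrogate variable 2690 and 2895, and a threshold of 0.01 gave 412 and 267. Leaving out 1 library gave 673 to 2314 higher and 546 to 1929 lower. The cause of these changes was not tested. No paired analysis was possible because replicate numbers were given in accession order and no animal is named. Burn values of Clock rest on as few as 78 counts.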
